A study of Mus musculus with 2 samples.

Results

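The mTOR complexes are the nutrient- and growth-factor-sensing kinases of the cell, and this account covers the 10 mouse genes that encode their subunits and the assembly factor Telo2: Mtor, Mlst8, Deptor, Telo2, Rptor, Akt1s1, Rictor, Mapkap1, Prr5 and Prr5l. They were taken by name from 21900 protein-coding genes, with earlier results on these peaks known, and all 10 were found in the gene annotation. Each was searched for summits of histone H3 β-hydroxybutyrylation at lysine 9 (H3K9bhb), the position of highest signal in a peak, inside the gene or within 5 kb of it. H3K9bhb is a histone acylation whose acyl group derives from the ketone body β-hydroxybutyrate. The series holds 1 ChIP-seq library with an H3K9bhb antibody and 1 input DNA library, which was not analysed here. Both came from C57BL/6 spleen cells of OT-I mice, whose T cells carry a transgenic receptor for an ovalbumin peptide. The splenocytes received that peptide at 200 ng/ml together with interleukin-2 at 10 ng/ml over 3 days. A further 4 days in interleukin-15 at 10 ng/ml gave memory-type CD8+ T cells, and β-hydroxybutyrate was given for 3 days. Every value below therefore comes from treated cells of 1 culture, with no untreated library and no replicate, and a summit shows where a peak was found and not a response to the ketone body.

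mTOR is a serine/threonine kinase of the PI3K-related family that works in a pair of complexes. mTORC1, defined by Raptor (Rptor), responds to amino acids and growth factors at the lysosome and drives protein and lipid synthesis while holding back autophagy. mTORC2, defined by Rictor, phosphorylates AKT, SGK and protein kinase C enzymes. In CD8+ T cells the activity of the mTOR complexes is known to influence the balance between effector and memory differentiation and the choice of metabolic programme.

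Of the 10 genes, 3 had a summit inside them or within 5 kb: Mtor, the kinase of both complexes, and Rictor and Prr5, subunits of mTORC2. Each had exactly 1, and each was the only summit of its peak. The share of 30.0% has an exact (Clopper-Pearson) 95% interval from 6.67 to 65.2%, which covers counting error only, and the same count over all protein-coding genes gave 11.4%. Each of the 3 summits lay 145 bp or less from an annotated transcription start of its gene. By complex, 2 of the 4 genes specific to mTORC2 had a summit (Rictor and Prr5), as did 1 of the 4 that serve both complexes or their assembly (Mtor), while the 2 specific to mTORC1, Rptor and Akt1s1, had 0. With so few genes the exact interval for the mTORC1-specific pair reaches up to 84.2% and that for the mTORC2-specific genes runs from 6.76 to 93.2%, so the complexes cannot be set apart by these counts. The genes were chosen with these peaks in view, and no test was made.

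The sequences before the starts that carry the summits are given first, because the position of the mark at Prr5 turns on which start is meant. They are from RefSeq (GRCm38.p6, the assembly that mm10 denotes), all on the plus strand and written 5′ to 3′. The first 3 are those at a summit: Mtor at chr4:148448332-148448581, Rictor at chr15:6708131-6708348, and the internal start of Prr5 at chr15:84680748-84681012, whose last base is the summit itself, just past the start. The Rictor stretch ends at the last base before the annotated gene, which begins shortly before the tabulated start. The other two had no summit and are shown for contrast, the first start of Prr5 at chr15:84662956-84663205 and the start of Rptor, the mTORC1 counterpart of Rictor, at chr11:119602655-119602904. Capitals mark 3 motifs searched on both strands, the CCAAT box (CCAAT), the GC box (GGGCGG) and an ETS-type motif (CCGGAAG).
Mtor: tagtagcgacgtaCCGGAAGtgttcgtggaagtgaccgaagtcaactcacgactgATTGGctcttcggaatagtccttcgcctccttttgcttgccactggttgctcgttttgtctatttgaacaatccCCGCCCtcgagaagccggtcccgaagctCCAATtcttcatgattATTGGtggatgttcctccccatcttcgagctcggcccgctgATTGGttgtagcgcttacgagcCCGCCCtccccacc
Rictor: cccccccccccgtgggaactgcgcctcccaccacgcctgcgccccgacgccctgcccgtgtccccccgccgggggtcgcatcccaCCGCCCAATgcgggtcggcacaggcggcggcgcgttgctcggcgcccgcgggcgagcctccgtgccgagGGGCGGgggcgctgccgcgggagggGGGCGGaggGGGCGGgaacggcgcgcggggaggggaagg
Prr5 internal start: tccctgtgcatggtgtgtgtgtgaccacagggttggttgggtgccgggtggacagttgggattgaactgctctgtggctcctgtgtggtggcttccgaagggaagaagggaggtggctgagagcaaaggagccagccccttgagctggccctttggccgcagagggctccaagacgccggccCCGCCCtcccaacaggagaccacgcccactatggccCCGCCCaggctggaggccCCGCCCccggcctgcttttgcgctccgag
Prr5 first start: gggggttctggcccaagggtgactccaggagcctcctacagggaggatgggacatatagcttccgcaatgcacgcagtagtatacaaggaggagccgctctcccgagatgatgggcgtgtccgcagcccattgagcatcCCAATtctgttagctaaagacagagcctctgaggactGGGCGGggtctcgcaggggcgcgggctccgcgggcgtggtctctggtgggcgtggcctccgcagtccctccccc
Rptor: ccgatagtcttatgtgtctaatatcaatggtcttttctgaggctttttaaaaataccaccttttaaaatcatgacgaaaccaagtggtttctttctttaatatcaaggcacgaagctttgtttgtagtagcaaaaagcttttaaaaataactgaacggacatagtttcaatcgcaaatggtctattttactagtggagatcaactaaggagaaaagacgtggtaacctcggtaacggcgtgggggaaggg

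Rictor, the scaffold that defines mTORC2 and without which the complex does not form, had the highest score of the members. The score is the authors' −log10 p or q value at the summit, and it was used to rank peaks within this list and for nothing else. Rictor spans chromosome 15 from 6708349 to 6800401 (92.1 kb), and its summit at 6708236 lay 113 bp outside the lower-coordinate end and 92165 bp from the higher one. Since the gene is on the plus strand, this is the promoter side, 145 bp upstream of the tabulated start at 6708381. The summit scored 12.4, a value that 63 of 2204 peaks (2.86%), itself included, reached or exceeded. It stood alone on this stretch of chromosome 15: the neighbouring summits were 3120 kb away on the lower side and 1390 kb on the higher side. In the Rictor sequence above, the summit falls 145 bp before the start, between a CCAAT box that begins 161 bp before the start and a GC box that begins 96 bp before it.

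Mtor, the catalytic subunit of both complexes, had its summit just inside the gene. It spans chromosome 4 from 148448582 to 148557685 (109104 bp), and the summit at 148448702 lay 120 bp inside the lower-coordinate end, 108983 bp from the other. The lower end is the annotated start of this plus-strand gene, so the summit was 120 bp downstream of the start and beyond the stretch printed above. Its score of 7.89 was reached or exceeded by 432 peaks (19.6%). Scores were coarse, and 53 peaks shared this exact value, so the rank is approximate. The closest other summits on the chromosome were 410 kb or more away.

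Prr5, which encodes Protor-1, a Rictor-binding accessory subunit of mTORC2, carried its summit in the body of the gene. It spans chromosome 15 from 84663206 to 84706409 (43.2 kb), and the summit at 84681012 was 17806 bp from the lower and 25397 bp from the higher end. Measured from gene ends alone, this is an intragenic peak far from either end. The RefSeq table, however, gives Prr5 a second start at 84680998, 17792 bp downstream of the first, and the summit lay 14 bp downstream of it. Around the first start, at 84663206, the closest summit was this same one, 17.8 kb away. Its score of 5.11 was reached or exceeded by 1081 peaks (49.0%), of which 68 had the same value. No other protein-coding gene had an end nearer to the Rictor, Mtor or Prr5 summit than the gene itself.

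**Figure D1:**
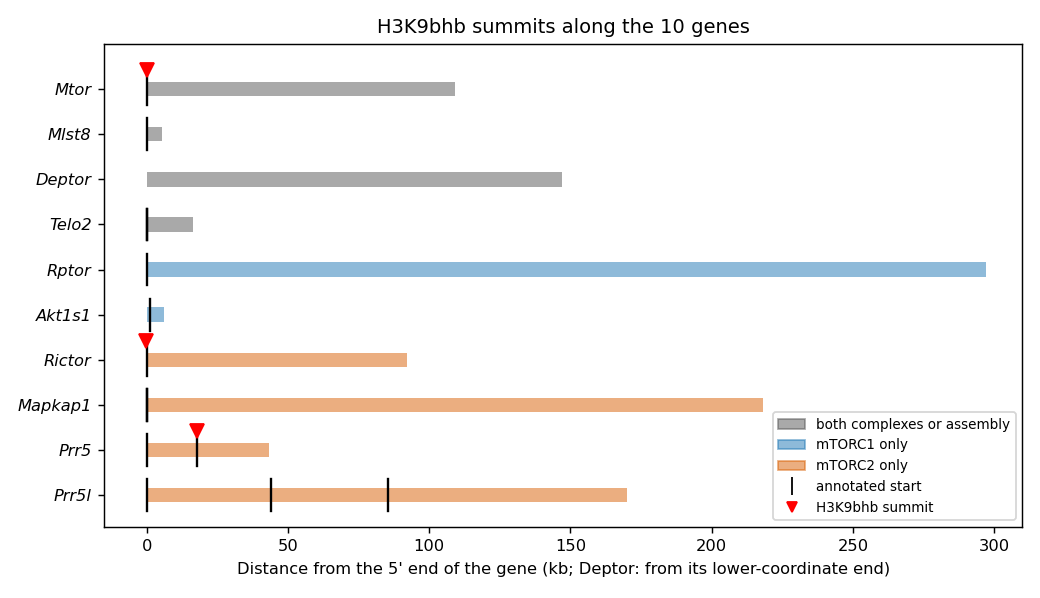
The 10 genes are drawn to scale as bars from the 5′ end in kb (Deptor from its lower-coordinate end), with annotated starts as black ticks and H3K9bhb summits as red triangles; grey bars serve both complexes or their assembly, blue bars mTORC1 and orange bars mTORC2. The summits of Mtor and Rictor sit at the first start, that of Prr5 sits at its second start 17.8 kb into the gene, and the other 7 genes have none.

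The other 7 members had no summit in the window, and none was close to its 5 kb limit. Among the genes that serve both complexes, Telo2, which with its partners Tti1 and Tti2 helps new PI3K-related kinases such as mTOR to fold and assemble, came closest. A summit (score 6.78) lay 17.6 kb beyond its higher-coordinate end on chromosome 17, and that summit was 237 bp from an end of Clcn7, a lysosomal chloride transporter. Deptor, an inhibitory subunit of both complexes, was 22.1 kb from a summit (4.22) that lay 236 bp from an end of Dscc1, a sister-chromatid cohesion factor. Mlst8, the small WD-repeat subunit that binds the kinase domain, was 71.1 kb from a summit (4.59) whose nearest gene end was that of Pkd1, 1533 bp away.

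The mTORC1-specific genes were farther from any summit than Telo2, Deptor and Mlst8. Rptor, the substrate-recruiting scaffold, is the longest of the 10 genes at 297 kb, yet had no summit in its whole span, and the closest (2.77) was 303 kb away, 92 bp from an end of Eif4a3, an RNA helicase of the exon junction complex. Akt1s1, which encodes the inhibitory subunit PRAS40, was 163 kb from a summit (4.52) lying 123 bp from an end of Rras, a small GTPase.

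Among the mTORC2-specific genes, Mapkap1, which encodes the scaffold SIN1, was 34.0 kb from a summit (4.29) that lay 698 bp from an end of Pbx3, a homeobox factor. Prr5l, the relative of Prr5 that encodes Protor-2, was the most remote at 2090 kb, with the closest summit (6.53) 11628 bp from an end of Lmo2, a LIM-domain regulator of blood cell development. For scale, protein-coding genes without a summit were a median of 289 kb from the closest one, with quartiles of 94.9 and 837 kb. Telo2, Deptor, Mapkap1, Mlst8 and Akt1s1 were nearer to a summit than this median, and Rptor and Prr5l were farther. Of the genes without a summit, 10.4% lay as far from one as Prr5l or farther. A missing summit means that no peak was listed there, and how much signal the library had at these genes is not given by a list of summits.

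The members are longer than most genes, with a median of 101 kb against 17.1 kb for all protein-coding genes. At or above 40 kb, a limit chosen after the lengths were seen, 3 of the 7 long members had a summit, beside 17.6% of all protein-coding genes of that length. Of the 3 members under 40 kb, Mlst8, Telo2 and Akt1s1, 0 had one, beside 8.99% of all such genes. The part of gene length in these counts was not tested.

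Distances to starts place the 3 summits among the other peaks. Of 2139 peaks on chromosomes with tabulated starts of protein-coding genes, 1383 (64.7%) lay within 500 bp of such a start, 1027 of these (74.3%) at or downstream of it and 356 (25.7%) upstream. Among these 1383 peaks within 500 bp, the median position was 114 bp downstream, with quartiles of 7 bp upstream and 218 bp downstream. The Mtor summit, 120 bp downstream, was close to the median. The Prr5 summit, 14 bp downstream, lay within the quartiles, and the Rictor summit, 145 bp upstream, belonged to the smaller upstream group. Counted by genes, 8.40% of the 17492 protein-coding genes with a tabulated start had a summit within 500 bp of one.

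**Figure D2:**
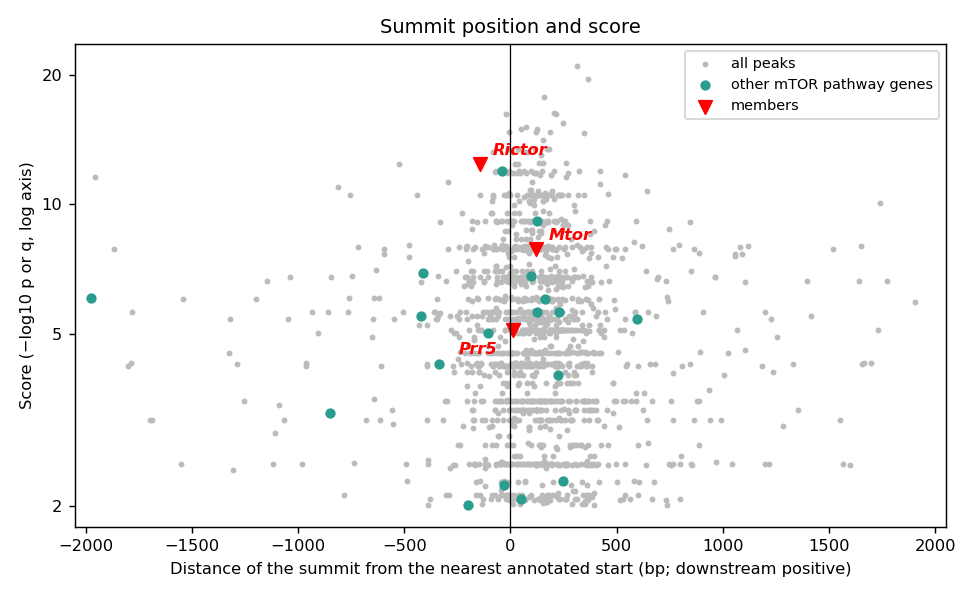
Each point is a peak, plotted by the distance of its summit in bp from an annotated start (downstream positive, limited to 2000 bp either side) and its score (−log10 p or q, log axis); grey points are all peaks at their nearest protein-coding start, green points other mTOR pathway genes and red triangles the members, both measured from their own gene's nearest start. Rictor (12.4) sits high in the cloud and upstream of the start, and Mtor (7.89) and Prr5 (5.11) sit downstream of it.

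Summits at an internal start, as in Prr5, were a minority of the cases where both kinds of start could be compared. Of 1169 protein-coding genes with one start within 2 kb of the 5′ end and another over 2 kb from both ends, 11.8% had a summit within 500 bp of the 5′ start and 4.19% within 500 bp of an internal start. Prr5 was 1 of 43 genes with a summit at an internal start only, while 132 had one at the 5′ start only and 6 had both. Its relative Prr5l also belongs to the 1169 and had no summit at any of its 3 starts. Which of these transcripts the cells used was not measured.

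The starts that carried a summit differed from each other in base composition. In the 250 bases before the start, Rictor had 40 CpG dinucleotides and a GC content of 81.2%, and 1.66% of the windows of protein-coding genes had as many CpGs. Mtor had 19 CpGs and 54.4% GC. The internal start of Prr5 had 10 CpGs and 66.8% GC, fewer CpGs than the first start of the same gene, which had 15 (64.0% GC) and no summit. Starts without a summit ranged from 1 CpG (a start of Prr5l) to 23 (Akt1s1), so the members' ranges overlapped. Over all protein-coding genes, starts with a summit within 500 bp had a median of 22 CpGs (quartiles 16 and 29) and the others a median of 8 (quartiles 3 and 18). By these values Mtor lies in the range of starts with a summit, Rictor above its upper quartile and Prr5 below its lower one. Akt1s1, with 23 CpGs and 66.4% GC, had a composition typical of starts with a summit and had none.

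**Figure D3:**
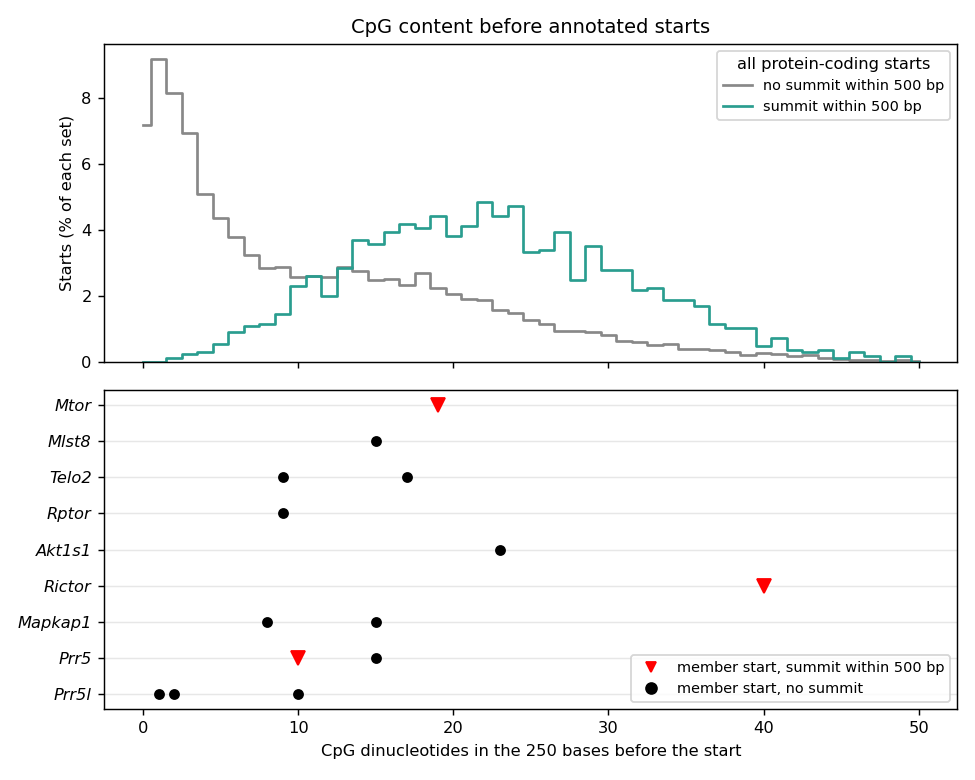
The upper panel shows the percentage of protein-coding starts with each number of CpG dinucleotides in the preceding 250 bases, in green for the starts with a summit within 500 bp and in grey for the rest; the lower panel gives the same number at each annotated start of 9 members, red triangles with a summit and black circles without. Rictor (40) stands at the CpG-rich edge, Mtor (19) near the middle of the starts with a summit, and Prr5 (10) below its own first start (15).

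The 3 motifs were unevenly spread over these windows. Mtor had 4 CCAAT boxes, beginning 195, 93, 77 and 36 bp before the start, and 1.02% of protein-coding windows had as many; it also had 2 GC boxes and 1 ETS-type motif, 237 bp before the start. Rictor had 4 GC boxes, a number reached by 5.59% of protein-coding windows, and 1 CCAAT box that shares bases with the first GC box. The internal start of Prr5 had 3 GC boxes, 68, 32 and 14 bp before the start, and the first start had 1 GC box and 1 CCAAT box. In the window of Rptor the letters of none (0) of the 3 motifs occurred, and its GC content was 37.6%, the lowest of the members' starts. Other starts without a summit did hold them: Akt1s1 and 1 start of Mapkap1 had 2 GC boxes and 1 ETS-type motif, the same numbers as Mtor. The other Mapkap1 start had 2 GC boxes, the starts of Prr5l had 0 or 1, and those of Mlst8 and Telo2 had 0. Over all 32851 tabulated windows, 33.8% held a CCAAT box, 32.7% a GC box and 6.91% the ETS-type motif. Among protein-coding windows the GC box was found in 75.5% of those with a summit within 500 bp of the start and in 39.9% of the others, whereas the CCAAT box was found in 31.5% and 35.7%. The GC box is made of G and C only and holds a CpG. Windows with a summit also had a higher median GC content, 66.4% against 54.4%. The part of base composition in the GC box shares was not tested. A match is a run of letters and does not show that a factor was bound.

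The genes most like Mtor and Rictor in this single library were sought by equal score and then by distance to the gene's own nearest end. For Mtor, 52 other peaks had the same score. The closest by distance were at Sgtb, a co-chaperone (122 bp), Park7, which encodes the redox-sensitive protein DJ-1 (123 bp), and Bcl2l11, which encodes the pro-apoptotic protein BIM (132 bp). For Rictor, 1 other peak had the same score, at Nptn, a cell adhesion molecule, 20 bp from a gene end.

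The rest of the pathway was described with 9 lists of 78 genes. In all, 18 of the 78 (23.1%, exact 95% interval 14.3 to 34.0) had a summit inside them or within 5 kb, again beside 11.4% of all protein-coding genes. The lists were chosen with earlier results on these peaks known and were not matched for gene length. The interval covers counting error only, and no test of the difference was made. These 18 genes held 21 summits with scores from 2.01 to 11.9 and a median of 5.04, where the members' summits scored 12.4, 7.89 and 5.11. For 5 of the 21 summits the end of another gene was nearer, those at Lamtor2 (Ubqln4), Akt1 (Zbtb42), Atr (1700065D16Rik), 1 of 2 at Sesn1 (Cep57l1) and 1 of 2 at Seh1l (Cep192).

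Upstream of mTORC1, the arm that reads amino acids had summits at some of its parts. For comparison, 11.4% of all protein-coding genes had a summit. Of the Rag GTPases and the Ragulator complex, which bring mTORC1 to the lysosome, 3 of 10 had one: Rragc (6.83) 98 bp downstream of its start, Rragd (2.29) 246 bp downstream, and the Ragulator subunit Lamtor2 (3.29) 850 bp upstream. Of GATOR1, GATOR2 and KICSTOR, which regulate the Rag GTPases, 1 of 11 (9.09%) had one, the GATOR2 subunit Seh1l (3.17), 89 bp inside the gene. Of the amino acid sensors and folliculin genes, 1 of 8 (12.5%) had one, Sesn1, which encodes a sestrin. The shares of the GATOR and sensor lists were thus near that of all protein-coding genes. Sesn1 had a summit 423 bp upstream of its first start (5.51) and another 40 bp upstream of an internal start (11.9), the latter the highest score among the pathway genes. The TSC complex and Rheb, the brake on mTORC1 and the GTPase it controls, had 0 of 5, for which the exact interval reaches up to 52.2%.

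In the growth factor arm, of the PI3K, PDK1 and AKT genes counted, 4 of 7 (57.1%, exact 95% interval 18.4 to 90.1) had a summit, beside 11.4% of all protein-coding genes. The 4 were Pik3r1, the p85α regulatory subunit (5.04 at 107 bp upstream of its start, and 6.08 inside the gene), Pik3cb, a catalytic subunit (2.08, 49 bp downstream), Pdpk1, the kinase PDK1 (2.01, 199 bp upstream of an internal start), and Akt1 (2.62, 4112 bp upstream). Apart from the Pik3r1 pair these scores were low in the list: the score of Akt1, the highest of them, was reached or exceeded by 85.5% of all peaks. In the top 50% of summits 1 of the 7, Pik3r1, was left, beside 4 of the 19 mTORC1 substrates and effectors. Of all protein-coding genes 5.82% had a summit in that top 50%. The exact intervals of the PI3K list and the mTORC1 substrate list overlapped in the full count.

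Downstream, 5 of 19 mTORC1 substrates and effectors had a summit. Tfeb, a transcription factor of lysosome genes (6.93), Eef2k, the elongation factor 2 kinase (5.63), and Eif4b, a translation initiation factor (5.41), had it 483, 418 and 598 bp inside the gene. From the nearest tabulated start, the Tfeb summit was 411 bp upstream, and the Eef2k and Eif4b summits were 229 and 598 bp downstream. Srebf1, a regulator of lipid synthesis (5.63), had it 125 bp downstream of an internal start, and Hif1a, the hypoxia-inducible factor (2.23), had it 29 bp upstream of an internal start and 6514 bp inside the gene. Of the mTORC2 substrates 1 of 7 (14.3%) had one, Prkca, protein kinase Cα (9.18), 123 bp downstream of its start. That share was near the 11.4% of all protein-coding genes. Of the factors that assemble PI3K-related kinases together with Telo2, 2 of 6 had one, Tti1 (4.26), a direct partner of Telo2, 335 bp upstream, and Rpap3 (6.04), a co-chaperone subunit, 162 bp downstream. Of the other kinases of the family, 1 of 5 had one, Atr, a kinase of the DNA damage response (4.03), 224 bp downstream.

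Among the pathway genes with tabulated starts, 5 summits lay inside the gene and over 2 kb from both its ends. Of these, 4 were within 500 bp of a start of the gene, at Sesn1, Pdpk1, Srebf1 and Hif1a, as the Prr5 summit was, and that of Pik3r1 was 1974 bp from one. The share over all 261 such pairs of gene and summit was 52.1%.

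**Figure D4:**
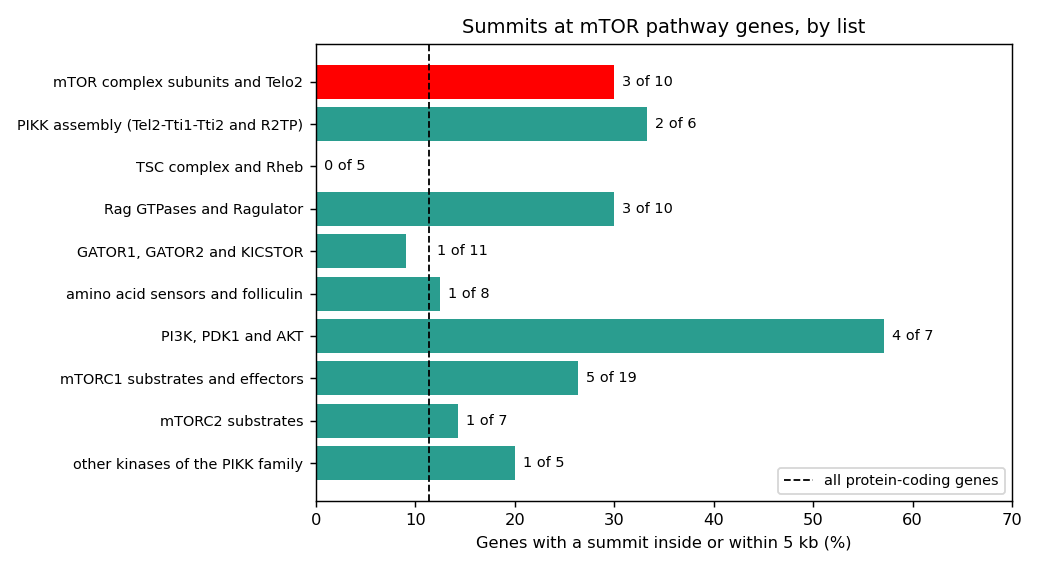
Bars give the percentage of each gene list with a summit inside the gene or within 5 kb, red for the mTOR complex genes and green for the 9 pathway lists, with counts beside the bars; the dashed line is the share of all protein-coding genes (11.4%). The PI3K, PDK1 and AKT list has 4 of 7, the mTOR complex genes 3 of 10 and the TSC and Rheb list 0 of 5.

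The peak list as a whole held 2315 summits of 2204 peaks, with a median score of 5.04 and a range from 2.01 to 1167.46, and 9 peaks lay on the mitochondrial genome, which has no histones. The labels give 70 M reads of 150 bp pairs for each library, and reads per peak are not in a list of summits, so the depth behind each value is unknown. As a check of the labelled cell type, 0 of 7 T cell markers (Cd8a and Cd3e among them) and 1 of 7 memory markers (Eomes) had a summit, beside 0 of 4 B cell and 0 of 4 myeloid markers. The share over all protein-coding genes was 11.4%. The exact interval reaches up to 41.0% for 0 of 7 and up to 60.2% for 0 of 4, so these counts do not bear on the labelled cell type.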

How the data were processed

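H3K9bhb ChIP-seq of β-hydroxybutyrate-treated CD8+ T cells was analysed from the summit list of 1 library. Per the submitters' processing notes the tools were MACS2 2.1.2, Bowtie2 2.3.5, Trimmomatic 0.39 and FastQC 0.11.8, and the build was mm10. The caller's settings, its control and any removal of duplicates or repeats are not stated in the labels. The deposited score is the authors' −log10 p or q value at a summit of 1 bp; whether p or q was used is not stated. It depends on local depth, which is unknown.

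Summits were set against RefSeq gene ends (GRCm38.p6) and against starts derived from RefSeq promoter windows of 300 bases (250 before and 50 after a start). The windows matched 9 of the 10 members; Deptor was not matched. GC content, CpGs and motifs were counted in the 250 bases before each start.

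Members and lists were chosen with earlier results of these data known. Some genes of the pathway lists are not reported here and were left out of the counts, for reasons unrelated to their values. Named genes are the members, pathway genes with a summit, the gene with the end nearest to a member's summit, and the peaks most like Mtor and Rictor. No test was made, for lack of replicates; intervals are exact at 95%. The counting was tested on simulated data, where 200 of 200 seeded genes were found. Alternatives changed the flank, the window, the gene assignment, the score threshold and the summits per peak. Counting used pandas 2.3.3 and numpy 2.4.6 under Python 3.11.15, intervals scipy 1.17.1 and plots matplotlib 3.10.9.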

Additional observations from a re-analysis of the deposited data

How the results depend on the processing

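With flanks of 1, 2 or 10 kb, with the gene of the nearest end only, in the top 50% of summits and with 1 summit per peak, the same 3 members (Mtor, Rictor and Prr5) had a summit. The share of all protein-coding genes was 10.4, 10.7 and 13.0% with these flanks. It was 9.26% by the nearest end and 11.4% with 1 summit per peak. Prr5 was near the limit of the top 50%, with a score of 5.11 that 49.0% of peaks reached or exceeded. Without a flank Rictor dropped out, since its summit lies before the gene. Within 2 kb of gene ends only Prr5 dropped out, since its summit lies at an internal start. The mTORC2-specific count was then 1 of 4 in either case. Over all protein-coding genes the share with a summit was 8.71% without a flank and 9.4% within 2 kb of gene ends. In the top 10% of summits only Rictor was left (1 of 10 members, 1 of 4 specific to mTORC2 and 0 of 4 shared). The mTORC1-specific count was 0 of 2 in all 9 alternatives. Fewer summits also lowered the other counts. The top 50% gave 9 of 78 pathway genes (11.5%) beside 1274 (5.82%) of all protein-coding genes. The top 10% gave 2 (2.56%) beside 278 (1.27%). Measured from the nearest tabulated start and not from a gene end, the summit of Prr5 moved from 17806 to 14 bp, that of Rictor from 113 to 145 bp, and that of Mtor remained at 120 bp. Scores without read counts limit how far the peaks can be ranked.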
